A study of Mus musculus with 72 samples.

Results

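The 10 tubulin genes described here were chosen by symbol: *Tuba1a*, *Tuba1b*, *Tuba1c*, *Tubb2a*, *Tubb2b*, *Tubb3*, *Tubb4b*, *Tubb5*, *Tubb6* and *Tubg1*, of 51826 genes in the count files. They were measured in E14TG2a cells, a mouse embryonic stem cell (mESC) line grown in "2i + LIF" medium, without any genetic change between groups. Cultures were labeled with 4-thiouridine (4sU), a uridine analog read as C in place of T (a T2C conversion) after alkylation, and separated by detergents into nucleus, cytosol and membrane fraction, beside whole cells. Labeling lasted 15, 20 or 30 min in replicates 1 and 2, whereas replicates 3 and 4 were taken at 20, 40, 60 and 120 min and replicates 5 and 6 only at 60 and 120 min. The study's methods give 500 or 100 µM 4sU by labeling time, with both doses at 60 min, and name no replicate numbers. From this, replicates 1 to 4 were taken here as 500 µM and replicates 5 and 6 as 100 µM. This is an inference, and 100 µM stands in the sample labels of all 60 and 120 min libraries. Replicates were independently passaged cultures, and cycloheximide was present from harvest on. The 120 min libraries of replicates 3 and 4 entered only the comparison of labeling times, so that 64 of 72 libraries, 16 per fraction, gave all other results.

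The α-tubulin genes lie together on chromosome 15 of GRCm38 (mm10), with *Tuba1a* at chr15:98949837-98953703 and *Tuba1b* at chr15:98931425-98934565 on the minus strand and *Tuba1c* at chr15:99029891-99038110 on the plus strand. *Tubb2a* (chr13:34074274-34078007) and *Tubb2b* (chr13:34126748-34130466) are neighbours on the minus strand of chromosome 13. *Tubb4b* is at chr2:25222160-25224702 and *Tubb5* at chr17:35833921-35838306, both on the minus strand. *Tubb3* (chr8:123411424-123422015), *Tubb6* (chr18:67390717-67402749) and *Tubg1* (chr11:101119938-101126419) are on the plus strand.

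Microtubules are polymers of α-tubulin and β-tubulin, which fold with the help of prefoldin, a chaperonin and the tubulin cofactors and then pair as a dimer. γ-Tubulin sits in ring complexes that seed new microtubules at the centrosome. Tubulin mRNAs are known for autoregulation: when free dimers rise, the factor TTC5 binds the first residues of a tubulin chain as it leaves the ribosome, and the adaptor SCAPER brings in the CCR4-NOT deadenylase, which shortens the life of that mRNA. *Tuba1a*, *Tuba1b* and *Tuba1c* encode α-tubulins, the 6 *Tubb* genes encode β-tubulin isotypes, and *Tubg1* encodes γ-tubulin. *Tubb3* is best known as a neuronal isotype and *Tubb5* as a β-tubulin of dividing cells.

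The residues encoded right after the start codon are what the autoregulation factor reads. The first 30 coding bases are therefore shown for 9 members, all but *Tubb6*. They were taken from the GENCODE M21 transcripts on GRCm38, 5′ to 3′ on the coding strand, and capitals mark codons 2 to 4.
Tuba1a: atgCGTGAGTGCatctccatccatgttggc
Tuba1b: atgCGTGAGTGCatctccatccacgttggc
Tuba1c: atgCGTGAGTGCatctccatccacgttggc
Tubb2a: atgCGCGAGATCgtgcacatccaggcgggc
Tubb2b: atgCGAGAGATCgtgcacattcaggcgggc
Tubb3: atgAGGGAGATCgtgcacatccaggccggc
Tubb4b: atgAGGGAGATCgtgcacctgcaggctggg
Tubb5: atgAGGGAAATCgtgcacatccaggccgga
Tubg1: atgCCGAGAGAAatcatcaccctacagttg

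The 3 α-tubulin genes share the same 9 capital bases, and *Tuba1b* and *Tuba1c* share all 30. The 5 β-tubulin genes shown use 4 different spellings of codons 2 to 4, of which *Tubb3* and *Tubb4b* share 1. *Tubg1* matches none of them. The start codons are at chr15:98953451-98953453 (*Tuba1a*), chr15:98934333-98934335 (*Tuba1b*), chr15:99030422-99030424 (*Tuba1c*), chr13:34077927-34077929 (*Tubb2a*), chr13:34130231-34130233 (*Tubb2b*), chr8:123411606-123411608 (*Tubb3*), chr2:25224588-25224590 (*Tubb4b*), chr17:35838051-35838053 (*Tubb5*) and chr11:101120194-101120196 (*Tubg1*). In the α-tubulin genes the start codon was the last piece of exon 1, with 0 bases of that exon left after it. In the 5 β-tubulin genes shown 54 bases were left, and in *Tubg1* 46.

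The tubulin genes are near copies of each other, and this touches every value that follows. Over the coding sequence, *Tuba1a* and *Tuba1b* were 98.3% identical and *Tubb2a* and *Tubb2b* 96.5%. Of all 75-base runs of its main transcript, *Tuba1b* shared 72.5% with transcripts of another gene, *Tuba1a* 70.1%, *Tuba1c* 58.7%, *Tubb2a* 50.5%, *Tubb4b* 40.5%, *Tubb2b* 34.5% and *Tubg1* 4.23%, while *Tubb3*, *Tubb5* and *Tubb6* shared 0. Reads that matched several places, between 19.4% and 34.9% of a library, were not counted on genes. Thus levels of *Tuba1a*, *Tuba1b*, *Tuba1c*, *Tubb2a*, *Tubb2b* and *Tubb4b* are uncertain where their exons are shared. The T counts behind the T2C shares were in whole cells 162 per counted read for *Tuba1c*, 74.3 for *Tuba1a* and 72.5 for *Tuba1b*, against 30.8 for the median gene and 30.3 for *Tubb5*.

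The 64 libraries held 15382522 to 52975732 reads on genes (median 21362457). All 8 stem cell markers, such as *Pou5f1* and *Nanog*, were at or above 1.5 RPKM (counted reads normalised to exon length and library size) in whole cells (summed 2920 to 4445 over replicates). Of 8 neuron markers 2 were, *Stmn2* and *Neurod1* (summed 49.4 to 65.8), with *Dcx* listed at 0 in whole cells and *Snap25* at 0.00676. Fibroblast (1 of 6), trophoblast (1 of 5), mesoderm (0 of 5) and primitive endoderm (0 of 6) markers were low. Nuclear transcripts summed to 142 ± 67.0 RPKM in nuclei against 27.9 ± 11.5 in cytosol, and transcripts for endoplasmic reticulum proteins to 585 ± 118 in nuclei, 92.6 ± 31.1 in cytosol and 1944 ± 518 in membrane fractions (SD, n = 6). In whole cells of replicate 6 the labels and the labeling went against each other, since the median gene had a new share of 37.4% in the library labelled 60 min and 17.5% in the library labelled 120 min, against 22.0% and 38.8% in replicate 5. All 10 tubulin genes showed the same in replicate 6, for example *Tuba1a* with 15.7% and 8.54%.

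Whole-cell levels of the isotypes were compared in RPKM, which corrects for exon length but not for uncounted reads that matched several places. Levels of members with shared runs, the α-tubulin genes above all, may therefore be too low. The order, ranks and percentage below hold for counted reads only. *Tubb5* had the highest level, with 280.0 in the lowest, 473 in the median and 825 in the highest of 16 libraries (527 ± 194, SD, n = 6 replicates). It ranked 49 of 10917 genes at or above 1.5 and made up 34.4% of the summed level of the 10 members. *Tubb4b* followed with 200 to 527 (median 340; 354 ± 109, rank 102) and the α-tubulin gene *Tuba1b* with 137 to 373 (median 241; 244 ± 58.7, rank 165). *Tubb2b* (113 ± 29.2) and *Tuba1a* (112 ± 15.2) were at the same level, with *Tubb2b* higher in 4 of 6 replicates.

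The other members were lower. *Tuba1c* was at 74.7 ± 19.6 and *Tubb6* at 44.7 ± 16.3 RPKM. *Tubg1*, whose protein is needed in far smaller amounts than the dimer, was at 26.2 ± 8.96. *Tubb3* was at 23.1 ± 9.56, ranking 2373, and *Tubb2a* was the lowest at 15.5 ± 5.07 (7.38 to 20.9 over libraries, rank 3492). Between neighbours in this order the replicate values overlapped in each case except *Tuba1b* and *Tubb2b*. Even so, within a replicate *Tubb5* exceeded *Tubb4b*, and *Tubb4b* exceeded *Tuba1b*, in 6 of 6 replicates, whereas *Tubb3* exceeded *Tubb2a* in 4 of 6. Much of the spread lay between pairs of replicates: whole-cell *Tubb5* reached at most 825 RPKM, in replicates 3 and 4, and fell to 280.0 in replicates 1 and 2.

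**Figure D1:**
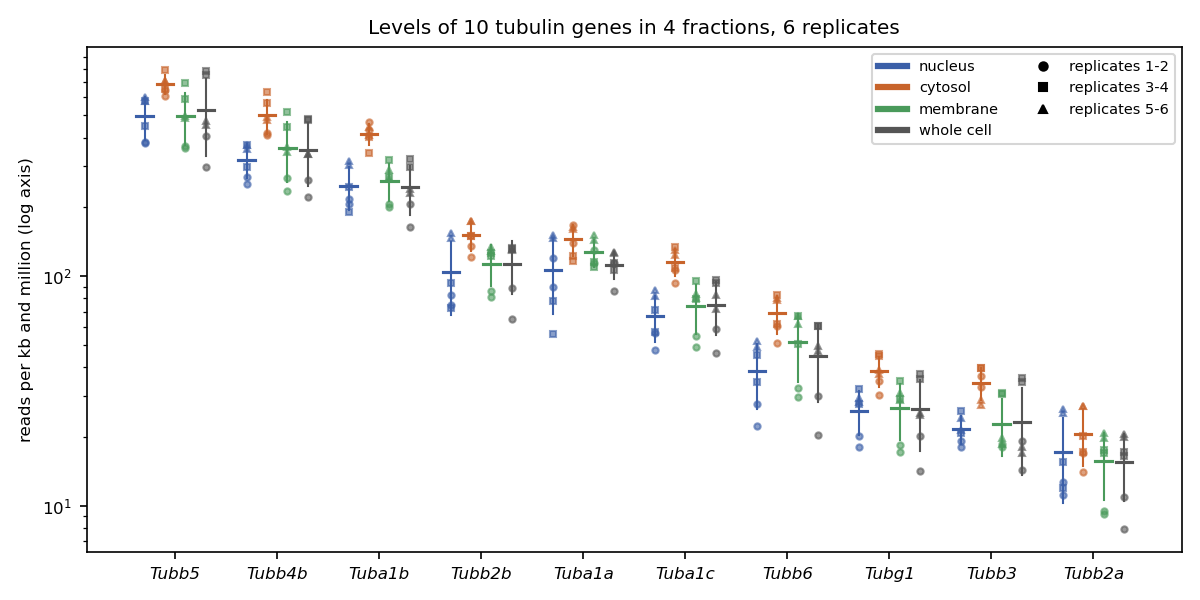
Level of each tubulin gene (log axis, RPKM) in nucleus, cytosol, membrane fraction and whole cells. Small symbols are the 6 replicates, with the shape giving the pair, and the bar and line are mean ± SD; the genes run from *Tubb5* (527 in whole cells) to *Tubb2a* (15.5), and each has its highest mean in the cytosol.

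Relative to the counted reads of each fraction, all 10 tubulin mRNAs were lower in the nucleus than in the cytosol. Here and below, levels compare the make-up of the fractions, not the amount of an mRNA in each. The paper estimates that more of the cell's mRNA is in the nucleus than in the cytosol. Lower levels in the nucleus thus do not show that it held less tubulin mRNA than the cytosol, which was not tested. *Tubb5* was at 298 to 686 (median 446) RPKM in nuclear and 585 to 823 (median 675) in cytosolic libraries, so that single libraries overlapped while the replicate means (at most 600.2 in the nucleus, at least 610.3 in the cytosol) did not. *Tubb6* had 21.3 to 54.6 RPKM (median 37.3) in nuclei and 48.2 to 84.5 (median 66.1) in the cytosol, and *Tuba1c* at 41.5 to 87.0 (median 59.7) and 90.0 to 141 (median 113). The libraries of *Tubb6* overlapped a little and those of *Tuba1c* did not. *Tubb2a* overlapped widely, with 7.29 to 26.7 RPKM (median 13.0) in nuclei and 13.4 to 27.8 (median 18.2) in cytosol.

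In edgeR's quasi-likelihood test (TMM scaling, counts summed per replicate, Benjamini-Hochberg over 19040 genes), 10 of 10 members passed an adjusted p under 0.05 and a log2 fold change beyond 0.5, all lower in the nucleus, as did 28.1% of all genes. Their median log2 difference was -1.01, against -0.01 for all genes tested. The changes ran from -1.23 ± 0.25 (SE) in *Tubb6* (adjusted p = 0.000169), -1.18 ± 0.19 in *Tuba1c* (7.93e-06) and -1.13 ± 0.16 in *Tuba1b* (1.95e-06) to -0.80 ± 0.20 in *Tuba1a* (0.00107) and -0.63 ± 0.26 in *Tubb2a* (0.038). *Tubb5* was at -0.86 and *Tubg1* at -0.98. In a bulk fraction, fewer nuclei or cells and less RNA in each cannot be told apart.

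The difference was smaller in replicates 5 and 6. Within replicates 1 and 2, 10 members passed as lower (26% of genes, member median -1.01), and within replicates 3 and 4 also 10 (22.5%, median -1.14). The median of all genes was at 0.02, 0.47 and 0.13 within the 3 pairs in this order. Within replicates 5 and 6, 2 passed, *Tubb6* (-0.67) and *Tuba1c* (-0.62), where 16.6% of genes were lower, and the other members lay between -0.49 and -0.11. These pairs also differ in labeling times, dose and the intron content of the nuclei, which cannot be told apart here. Per 100 exon T, nuclear *Tubb5* had 0.593 to 0.924 intron T counts in replicates 5 and 6. It had 2.06 to 3.21 in replicates 1 and 2 and 0.502 to 3.91 in replicates 3 and 4. When counts were scaled by library size alone, the median of all genes moved to 0.35 and 7 members passed, with *Tuba1a*, *Tubb2a* and *Tubb5* at -0.46, -0.28 and -0.49. *Tubb2a* lost its call without any of replicates 1 to 5 (-0.34 to -0.59), and *Tuba1a* (-0.52) without replicate 2.

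**Figure D2:**
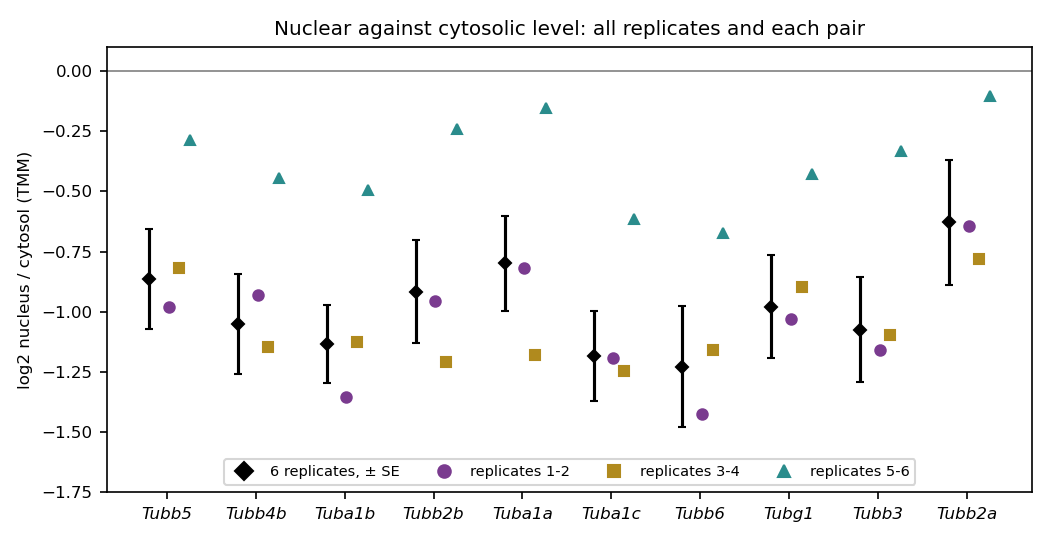
Log2 difference between nucleus and cytosol (edgeR, TMM scaling) for each tubulin gene. Black diamonds are the fit over 6 replicates ± SE and coloured symbols the fits within each pair of replicates; all points are below 0, and those of replicates 5 and 6 are nearest to it (-0.67 to -0.11).

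Between membrane fraction and cytosol, 0 of 10 members passed in edgeR, where 30% of all genes did (21.1% higher in the membrane fraction and 8.87% lower). At an unadjusted p under 0.05 there was 1 member, *Tuba1b* (-0.39 ± 0.16, adjusted p = 0.0576), and DESeq2 called 0. The values ran from -0.39 to 0.14 in *Tuba1a*, with a median of -0.20 against -0.14 for all genes. *Tuba1b* was at 179 to 473 (median 252) RPKM in membrane libraries and 327 to 490 (median 420) in cytosolic ones. *Tuba1a* was at 97.3 to 159 (median 119) in the membrane fraction and 115 to 175 (median 142) in the cytosol. The libraries of both genes overlapped between the fractions. With library size alone, the median of all genes moved to -0.45 and 4 members passed as lower, *Tuba1b* (-0.70), *Tuba1c* (-0.65), *Tubb3* (-0.58) and *Tubg1* (-0.55), where 34.4% of genes did, and without replicate 5 there was 1 such call. The main fit had no replicate block, although deviations of same-numbered membrane and cytosol samples correlated at 0.62 to 0.77.

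Other genes of tubulin biology were taken from fixed lists, whose counts stand beside 28.1% of all genes lower and 30.9% higher in the nucleus than in the cytosol. Of 10 other tubulin genes 8 were tested and 3 were lower in the nucleus than in the cytosol in edgeR, among them the α-tubulin gene *Tuba4a* (-1.39, adjusted p = 6.09e-06), and *Tuba3a* was at -1.13 (0.0933). All 6 prefoldin subunits were lower (median -1.45), including *Pfdn1* (-1.40) and *Pfdn5* (-1.71). Of 7 genes for folding cofactors and their regulator *Arl2*, 4 were lower, including *Tbca* (-0.90) and *Tbcb* (-1.31), which handle β-tubulin and α-tubulin. All 3 stathmins tested were lower, and *Stmn1* (-1.67) and *Stmn2* (-1.06) encode proteins that bind tubulin dimers. Of the 3 autoregulation factors, *Cnot11* was lower (-0.76), while *Ttc5* was at -0.17 (0.19). Of 8 ring complex genes 2 were lower (*Mzt1* and *Mzt2*, the latter at -0.87) and 1 higher. Tubulin modifying enzymes were mixed (6 of 14 lower, 3 higher), with *Svbp*, a partner of the detyrosinating vasohibins, at -1.54 and the deacetylase *Hdac6* at 0.62, as were microtubule-associated proteins (3 of 16 lower, 2 higher), with the plus-end protein *Mapre1* at -1.46 and *Ckap5* at 0.23 (0.262). Between membrane fraction and cytosol, 4 of 16 microtubule-associated proteins and 2 of 14 modifying enzymes were lower, and 1 of 3 stathmins was higher, against 8.87% of all genes lower and 21.1% higher.

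Across the 24 replicate means of the 4 fractions, the members followed each other unequally. The correlation of a member's profile of log2 levels with the mean of the other members was 0.97 in *Tuba1c*, 0.95 in *Tubb6* and 0.92 in *Tubb5*, but 0.75 in both *Tubb2a* and *Tubb3* and 0.53 in *Tuba1a*. Among 10907 other genes, *Pef1* (r = 0.973), *Fbxo6* (0.966), *Gstp1* (0.965), *Acot7* (0.964) and *Sin3b* (0.963) were most like the mean profile of the 10 members. These values share libraries and cultures and are a description.

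Levels were next compared between labeling times. All libraries compared were labeled, so that an effect of 4sU itself cannot be read from them. The paper left out labeling beyond 60 min at the higher dose, because many genes then differed from unlabeled whole cells. By the doses taken here, this covers the 120 min libraries of replicates 3 and 4. In the nucleus of replicates 3 and 4, *Tubb5* was at 298 and 459 RPKM at 20 min, at 613 and 596 at 40 min, at 433 and 686 at 60 min and at 462 and 662 at 120 min. *Tubb2b* was at 45.1 and 69.2 at 20 min and at 72.2 and 107 at 120 min, and *Tubb6* at 25.0 and 38.4 and at 45.0 and 51.4. In each of these 3 genes both 20 min libraries lay below both 120 min libraries, for *Tubb5* by a small margin. Both 40 min libraries of *Tubb5* already lay above the lower of its 120 min values. At 20 min in nuclei of replicates 1 and 2, *Tubb5* was at 388 and 374 and *Tubb6* at 21.3 and 28.7, also below these 120 min values. *Tubb2b* was at 75.2 and 83.3 there, above the lower of its 120 min values. The intron content of the nuclei differed between these times as well. In percent of exon T counts, intron T counts of *Tubb2b* in replicates 3 and 4 were 3.16 and 1.76 at 20 min. At 120 min they were 1.10 and 1.11, and their part in the levels was not tested.

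Between 120 and 20 min in the nucleus, all 10 members were higher, from 0.38 in *Tuba1c* to 0.81 ± 0.26 in *Tubb2b* (log2, member median 0.60, all genes 0.02), but 0 of 10 passed in edgeR, where 2.91% of genes did. The smallest adjusted p was 0.0559, in *Tubb6* (0.76 ± 0.20), and 9 members had an unadjusted p under 0.05. DESeq2 called 4 as higher (*Tubb2b*, *Tubb5*, *Tubb6* and *Tubg1*), where 2.75% of genes were, and edgeR called 2 without replicate 3 and 2 without replicate 4.

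The other fractions gave no such call. Members lay between -0.03 and 0.30 (log2) for cytosol, -0.06 and 0.18 for membrane fractions and 0.07 and 0.32 for whole cells, and 0 of 10 passed in each by edgeR and by DESeq2, with 0 at an unadjusted p under 0.05 (background 1.04%, 0.0741% and 0.113% of genes). Between 120 and 60 min in replicates 5 and 6, edgeR and DESeq2 called 0 genes in any fraction (background 0%). Members were then at -0.19 to 0.01 in the nucleus, and none had an unadjusted p under 0.05 in any of the 4 fractions.

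The new share of an mRNA was taken as its T2C conversions per T divided by the conversion rate of the library. At short labeling times most tubulin mRNAs were at or above the median gene, and at long times below it. In cytosol at 20 min, *Tubb5* had shares of 3.92, 3.72, 3.05 and 3.24% in replicates 1 to 4, *Tuba1b* 3.21, 2.88, 2.62 and 2.60%, and *Tubg1* 1.54, 1.90, 1.64 and 1.67%. The median gene had 2.01 ± 0.06% in replicates 1 and 2 and 2.50 ± 0.40% in replicates 3 and 4, so that *Tubb5* was above it and *Tubg1* below in all 4 replicates. *Tuba1b* was above it in replicates 1 to 3 and below it in replicate 4, where the median gene had 2.78%.

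At 120 min in replicates 5 and 6, the cytosolic shares were 21.4 and 20.4% for *Tubb5*, 14.1 and 13.7% for *Tuba1b*, 14.4 and 14.1% for *Tubb2b*, 28.4 and 27.9% for *Tubb4b* and 25.1 and 24.2% for *Tubg1*. All were below the median gene (37.0 ± 0.37%). Shares were ranked among 11575 genes that reached 400 T counts in all libraries. The cytosolic percentiles ran from 11.8 (*Tuba1b*) to 45.9 (*Tubb3*), the nuclear ones from 5.69 (*Tubb2b*) to 37.7 (*Tubb3*), and those of the membrane fraction from 12.6 to 51.8, again from *Tubb2b* to *Tubb3*. Without a 483-base stretch of *Tubb3* with many conversions, its shares at 120 min were 28.6% in the cytosol and 28.8% in the nucleus, under those of *Tubb2a* (29.0% and 30.4%), so that the upper ends of the cytosolic and nuclear ranges rest on that stretch. At 20 min the same genes ranked higher, with *Tuba1b* at percentile 58.4 and *Tubb5* at percentile 66.9 of the cytosol.

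The nucleus gave a like order of isotypes. At 120 min the nuclear shares were 14.1 and 14.5% for *Tubb2b*, 16.5 and 14.9% for *Tuba1b*, 20.9 and 19.0% for *Tubb5*, 29.3 and 27.2% for *Tubb4b* and 32.8 and 38.7% for *Tubb3*. The median gene had 42.9 ± 2.24% there.

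**Figure D3:**
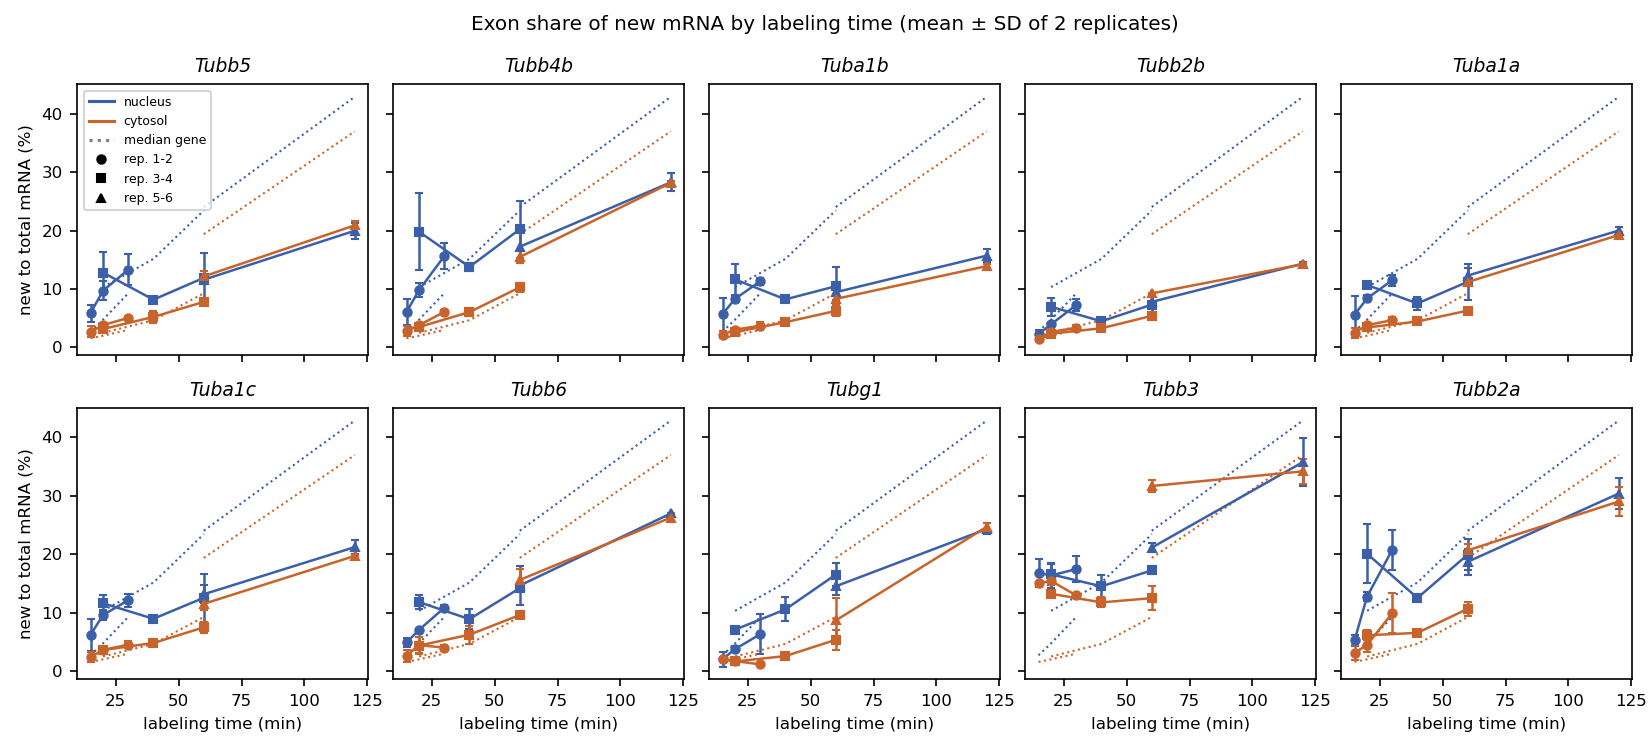
Exon share of new to total mRNA (%) by labeling time (min) in nucleus (blue) and cytosol (orange) for each tubulin gene, as mean ± SD of 2 replicates, with the symbol giving the pair. Dotted lines are the median gene (37.0% in the cytosol and 42.9% in the nucleus at 120 min); the members lie below these lines at 120 min, and *Tubb3* is flat up to 60 min in replicates 1 to 4.

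Each gene's share was then set against the median gene of the same library (log2, replicate means, limma, Benjamini-Hochberg over 11575 genes). In the nucleus 2 members passed, both lower (28.8% of genes): *Tubb2b* (-1.03 ± 0.21, adjusted p = 0.000216) and *Tubg1* (-0.56 ± 0.10, 5.4e-05). In the cytosol *Tubg1* was lower (-0.62 ± 0.10, 1.27e-05; 32.2% of genes) and *Tubb3* (1.36 ± 0.37, 0.00204) and *Tubb2a* (0.52 ± 0.23, 0.0482) were higher (29.3% of genes). *Tubb2b* was at -0.49 there (adjusted p = 0.0457), just short of the size needed. In the membrane fraction *Tubb2b* (-0.64) and *Tubg1* (-0.69) were lower (31.9% of genes) and *Tubb3* (1.31) was higher (29.6%). In whole cells *Tubb2b* (-0.84) and *Tubg1* (-0.74) were lower (31.2%) and *Tubb3* (0.96 ± 0.37, 0.024) was higher (27.2%). *Tubg1* was below the median gene in 6 of 6 replicates in all 4 fractions.

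The pairs of replicates gave opposite signs for the α-tubulin mRNAs and *Tubb5*. In the nucleus, the log2 share of *Tuba1b* against the median gene ran from -1.39 to 0.85 over replicates and that of *Tubb5* from -1.06 to 0.82, with 2 of 6 replicates above 0 in both. From the libraries of 60 min and longer (replicates 3 to 6), all calls were lower: 7 members in nuclei (26.8% of genes), 5 in cytosol (34.8%), 6 in membrane fractions (33.7%) and 6 in whole cells (30%). In whole cells these were *Tubb2b* (-1.23 ± 0.10, adjusted p = 8.1e-08), *Tuba1b* (-1.02, 7.23e-05), *Tuba1a* (-0.86), *Tuba1c* (-0.82), *Tubb5* (-0.74) and *Tubg1* (-0.73), while *Tubb2a* and *Tubb3* were both at -0.08. The 2 higher calls of *Tubb3* and *Tubb2a* in the cytosol ended with this choice of times (0.35 and 0.03). Without replicate 1, 4 members passed in the nucleus, and raising the pseudocount from 0.005 to 0.02 left 1 nuclear and 1 cytosolic call.

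Nuclear exon shares did not rise steadily in replicates 3 and 4. *Tubb5* had 15.3 and 10.3% at 20 min, 8.22 and 8.13% at 40 min and 15.0 and 8.86% at 60 min. *Tubb4b* had 24.5 and 15.1%, then 14.3 and 13.2%, then 23.6 and 16.8%. Both genes were lower at 40 than at 20 min in both replicates, whereas *Tubg1* rose (7.19 and 6.99% at 20 min, 15.1 and 17.9% at 60 min), as did the median gene (10.3 ± 1.71%, 15.1 ± 0.34% and 23.4 ± 5.79%). The nuclear level of *Tubb5* was higher at 40 than at 20 min in the same replicates, as given above. Its intron T counts per 100 exon T were 3.91 and 2.10 at 20 min, 0.976 and 1.04 at 40 min and 1.99 and 0.502 at 60 min. Those of *Tubb4b* fell from 11.5 and 7.50 at 20 min to 3.44 and 3.58 at 40 min. Those of *Tubg1*, whose share rose, fell as well, from 48.1 and 33.5 to 16.4 and 20.9. The part of these changes in the shares was not tested.

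*Tubb3* stood apart at short times. Its cytosolic share was 14.9 and 15.1% at 15 min, 15.8 and 15.1% at 20 min and 13.0 and 12.9% at 30 min in replicates 1 and 2, and 13.7 and 12.8% at 20 min, and 12.4 and 11.2% at 40 min in replicates 3 and 4, where its mean at 60 min was 12.5 ± 2.04%. It therefore did not rise with labeling time up to 60 min at 500 µM, while the median gene went from 1.58 ± 0.33% at 15 min to 9.27 ± 0.04% at 60 min. At 20 min it was at percentile 96.6 of genes in cytosol and 96.5 in whole cells. In the 120 min libraries of replicates 3 and 4 it was 15.1 and 23.3%. In the 100 µM cultures the share was 30.9 and 32.4% at 60 min and 32.7 and 35.7% at 120 min.

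These conversions came largely from 1 stretch of the gene. Exon 6 in the files (483 bases, chr8:123420612-123421094) lies inside the last exon of *Tubb3* (exon 5, chr8:123420607-123422015). In the 24 libraries of 15 and 20 min, the T2C rate inside this stretch was 0.895 to 1.47 per 100 T (median 1.14), and outside it 0.0329 to 0.351 (median 0.0785), so that the ranges did not overlap. The stretch held a median of 27.5% of the T counts of *Tubb3* and 85.3% of its T2C counts (49.3 to 92.0%). The T2C rate of whole genes in the same libraries had a median of 0.102 per 100 T in *Tubb5*, 0.107 in *Tubb4b* and 0.387 in *Tubb3*.

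With the stretch left out, an alternative chosen after seeing the data, the cytosolic share of *Tubb3* rose with time, from 2.56 ± 0.35% at 15 min to 6.38 ± 0.65% at 60 min in replicates 1 to 4 and to 28.6 ± 0.19% at 120 min. Against the median gene, *Tubb3* was then at -0.23 ± 0.17 in the nucleus (adjusted p = 0.239), 0.11 in cytosol (0.549), 0.13 in membrane fractions (0.502) and -0.17 for whole cells (0.377), and passed in none of the 4. Each of its 3 calls as higher thus ended without this stretch. What the conversions in it are was not tested.

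**Figure D4:**
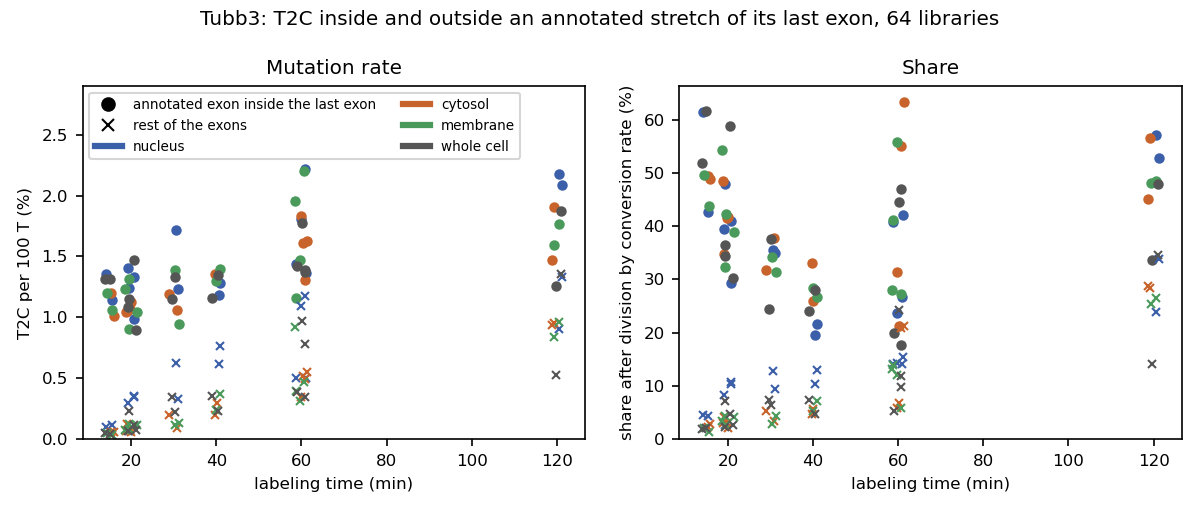
T2C conversions of *Tubb3* per 100 T (left) and share after division by the conversion rate (right, %) against labeling time (min) in 64 libraries, inside the 483-base stretch (dots) and in the rest of the exons (crosses), coloured by fraction. At 15 and 20 min the dots lie at 0.895 to 1.47 per 100 T and the crosses at 0.0329 to 0.351.

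Shares of other isotypes were recomputed, again after seeing the data, from the exons that hold no 75-base run of another gene (exon 1 of *Tuba1b* and *Tuba1c*, exons 1 to 3 of *Tubb2a*, exons 1 and 3 of *Tubb2b* and *Tubb4b*), which lie toward the 5′ end. Shared sequence, position in the transcript and the number of T counts changed together in this, and cannot be told apart. *Tubb2a* turned from higher to lower in the cytosol (-0.70 ± 0.27, adjusted p = 0.0237) and was lower in the nucleus (-1.24), the membrane fraction (-0.63) and whole cells (-0.75) as well. These values of *Tubb2a* rest on few counts: its unshared cytosolic exons held a median of 9 T2C per library, with 0 in 4 of 16 libraries, and the cytosolic share at 20 min was 4.13 ± 6.59% (SD, n = 4), with a mean above the median gene. *Tuba1b* passed as lower in all 4 fractions (-0.82 in whole cells, adjusted p = 0.00622; -0.77, -0.59 and -0.60 in nucleus, cytosol and membrane fraction), and *Tuba1c* in the nucleus (-0.52).

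At 120 min in the cytosol, the unshared exon 1 gave 12.6 ± 0.65% for *Tuba1b* and 24.9 ± 0.54% for *Tuba1c* (SD, n = 2), where the whole genes gave 13.9 ± 0.31% and 19.7 ± 0.08%. The distance between these 2 α-tubulin mRNAs was thus wider in sequence that tells them apart. For *Tubb2b* and *Tubb4b*, unshared exons gave 15.9 ± 1.66% and 27.3 ± 0.39%, close to the whole-gene values of 14.2 ± 0.23% and 28.2 ± 0.30%.

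In the same culture, the cytosolic share was below the nuclear share in 16 of 16 cultures for *Tuba1a*, *Tuba1b* and *Tuba1c*, in 15 for *Tubb4b* and *Tubb6*, in 14 for *Tubb2a*, in 13 for *Tubb2b*, *Tubb3* and *Tubg1* and in 12 for *Tubb5*, and in 16 for the median gene. *Tuba1b*, for example, had 8.64 and 7.97% in the nucleus and 3.21 and 2.88% in the cytosol at 20 min in replicates 1 and 2, but 16.5 and 14.9% against 14.1 and 13.7% at 120 min in replicates 5 and 6. The ratio of cytosolic to nuclear share of *Tuba1b* was 0.366 ± 0.00778 at 20 min in replicates 1 and 2, rose from 0.230 ± 0.0503 at 20 min to 0.615 ± 0.115 at 60 min in replicates 3 and 4, and was 0.880 ± 0.0308 at 60 min and 0.888 ± 0.0446 at 120 min in replicates 5 and 6 (SD, n = 2). Within the last pair the times differed by less than the SD. Between pairs, time, dose and the intron content of the nuclei cannot be told apart. Relative to the median gene of each library, 0 of 10 members differed between cytosol and nucleus in limma (16.8% of genes), with 0 at an unadjusted p under 0.05 and values from -0.06 to 0.86. With the replicate as a block, 2 passed as relatively higher in the cytosol, *Tubb3* (0.86 ± 0.12, adjusted p = 2.33e-05) and *Tubb2b* (0.54 ± 0.10, 0.000538), where 17.3% of genes did. Without the 483-base stretch, *Tubb3* was at 0.34 ± 0.11 with the block (adjusted p = 0.023) and was not called, as it missed the size needed. *Tubb2b* from its unshared exons was at 0.66 ± 0.18 (0.00698) and passed. Without centring and with the block, 8 members were lower in the cytosol, from -0.56 in *Tubb6* to -1.02 in *Tubg1*, but so were 73.5% of genes (median -0.89), and *Tubb2b* (-0.42) and *Tubb3* (-0.10) did not pass.

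Within pairs of replicates, 1 member passed in replicates 1 and 2 (*Tubb3*, 7.48% of genes), 6 in replicates 3 and 4 (*Tubb3*, *Tubb2b*, *Tubb6*, *Tuba1a*, *Tubb5* and *Tuba1c*, 17.6%) and 1 in replicates 5 and 6 (*Tubb3*, 14.6%), all relatively higher in the cytosol. Without its stretch, *Tubb3* was at 0.15 within replicates 1 and 2 (adjusted p = 0.743), at 0.36 within replicates 3 and 4 (0.303) and at 0.52 within replicates 5 and 6 (0.0347), so that the call held in the last pair only. Between membrane fraction and cytosol, 0 of 10 members differed in limma (9.65% of genes), with 0 at an unadjusted p under 0.05 and values from -0.19 to 0.01, and the block changed none of these calls.

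Introns of the tubulin genes, which stand for pre-mRNA, differed widely in their new share at 20 min. Nuclear intron shares at 20 min in replicates 1 to 4 were 93.0, 97.8, 101 and 101% for *Tubb5*, 105, 128, 114 and 116% for *Tuba1b*, and 25.8, 53.4, 49.0 and 54.2% for *Tubg1*. A share can exceed 100%, since the T2C rate is divided by an estimated conversion rate, and no background was subtracted. The α-tubulin genes and *Tubb5* were high in all 4 replicates, and *Tubg1* was lower. The mean intron share was 117% for *Tuba1c*, 116% for *Tuba1b*, 113% for *Tuba1a* and 98.4% for *Tubb5*, all at or above percentile 99.3 of 11256 genes. It was 83.2% for *Tubb2b*, 81.4% for *Tubb4b*, 69.9% for *Tubb3*, 67.2% for *Tubb6* and 65.7% for *Tubb2a* (percentiles 97.4 to 91.6), and 45.6% for *Tubg1* (percentile 72.9). The median gene had 25.1 ± 3.88% in replicates 1 and 2 and 39.1 ± 5.53% in replicates 3 and 4.

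Intron T counts were few beside exon T counts, at 1.28 ± 0.56 per 100 exon T in the nucleus for *Tuba1a*, 1.68 ± 0.89 for *Tubb5*, 4.58 ± 2.14 for *Tubb4b* and 22.6 ± 10.6 for *Tubg1* (SD, n = 6). The genes span between 2.543 kb (*Tubb4b*) and 12.033 kb (*Tubb6*). At 15 min the intron shares were 71.6 and 65.3% for *Tubb5*, 101 and 97.5% for *Tuba1b*, 40.0 and 32.1% for *Tubb2b* and 20.7 and 17.8% for *Tubg1*. The α-tubulin genes and *Tubb5* were thus again the highest members and *Tubg1* the lowest, while *Tubb2b*, next after *Tubb5* at 20 min, had the lowest mean but that of *Tubg1* at 15 min.

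Against the exons of the same nuclei, both centred on the median gene, 7 of 10 members had a higher intron share in limma (22.3% of 11256 genes): *Tubb2b* (1.54 ± 0.36, adjusted p = 0.00284), *Tuba1b* (1.54 ± 0.48, 0.0175), *Tuba1a* (1.42, 0.0162), *Tuba1c* (1.31, 0.0237), *Tubb5* (1.18, 0.0376), *Tubb6* (0.93, 0.016) and *Tubg1* (0.86 ± 0.17, 0.000835). *Tubb4b* (0.57, 0.188), *Tubb2a* (0.39, 0.35) and *Tubb3* (0.20, 0.703) did not pass. These fits used all exons, with the stretch of *Tubb3* that had many conversions and with shared sequence. Against the median gene, nuclear exons of *Tubb3* were at 0.50 with that stretch and -0.23 without it. In whole genes and unshared exons, *Tubb2a* was at 0.28 and -1.24 and *Tubb4b* at 0.18 and -0.29. Introns were not set against these other exon values, so that the missing calls are uncertain. The member median was 1.05, against -0.08 for all genes. With the replicate as a block *Tubb4b* passed too (adjusted p = 0.00128; 23.5% of genes). With the block and no centring 10 of 10 did, as did 95.2% of genes. Without replicate 4, 2 members passed (*Tubb2b* and *Tubg1*), and without replicate 3, 4 (*Tuba1a* and *Tuba1b* as well), with *Tubb5* at 1.12 and 1.19. *Tubb5* also missed the threshold without replicate 5 (1.16).

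**Figure D5:**
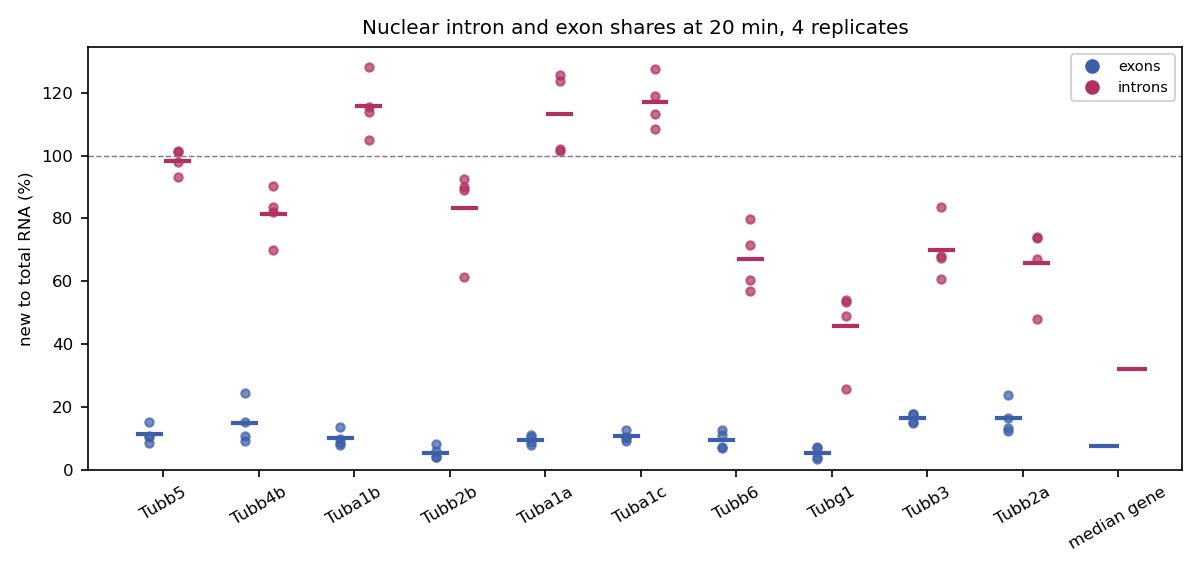
Nuclear share of new to total RNA (%) at 20 min in exons (blue) and introns (red) of each tubulin gene, with points for 4 replicates, bars for their mean and the median gene at the right; the dashed line marks 100%. Introns of *Tuba1c*, *Tuba1b* and *Tuba1a* lie above that line (mean 117, 116 and 113%), and exons of all members lie at or below 24.5%.

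An apparent half-life was fitted to the shares of each fraction with a one minus exponential curve and a delay of 5 min, as a description with no test. In whole cells it was longest for *Tubb2b* (10.1 ± 2.28 h, SD over 6 replicates), *Tuba1b* (8.66 ± 2.47 h), *Tuba1a* (7.57 ± 1.98 h) and *Tuba1c* (7.07 ± 1.98 h), followed by *Tubg1* (6.73 ± 2.30 h) and *Tubb5* (6.59 ± 2.21 h). The value of *Tuba1a* rests largely on sequence shared with the other α-tubulin genes and may mix them. *Tubb6* (5.31 ± 1.15 h), *Tubb4b* (4.81 ± 1.23 h) and *Tubb2a* (4.21 h, 1.94 to 5.23 h over replicates) were shorter. *Tubb3* had 3.09 ± 1.38 h, and 4.76 ± 2.48 h without its 483-base stretch. The median gene had 3.65 ± 1.22 h, and neighbouring members in this order were within their spread. All whole-cell half-lives, here and below, include the libraries of replicate 6 at their labelled times, which went against the labeling. Within replicates 3 and 4 alone, *Tubb2b* had 11.2 h, *Tubg1* 10.0 h, *Tuba1b* 8.12 h and the median gene 5.45 h.

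The cytosol gave a like order, with 8.65 ± 1.87 h for *Tubb2b*, 8.56 ± 1.38 h for *Tuba1b*, 5.85 ± 1.27 h for *Tubb5* and 4.37 ± 0.97 h for *Tubb4b*. The values depended on the pair of replicates: cytosolic *Tubb5* had 5.09 h in replicates 1 and 2, 7.57 h in replicates 3 and 4 and 5.48 h in replicates 5 and 6, and *Tubg1* 14.5, 12.4 and 5.08 h, while the median gene had 8.97 h, 7.02 h and under 3 h. *Tubb5* was thus below the median gene in replicates 1 and 2 and above it in replicates 5 and 6. In exons without shared runs, whole-cell *Tuba1b* had 10.1 ± 2.21 h and *Tubb2a* 5.98 ± 7.04 h, the latter from few T counts (at least 1208 per library).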

How the data were processed

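Poly(A)-selected, strand-specific RNA of 72 libraries was sequenced as 75-cycle paired reads. The authors aligned reads to GRCm38 (mm10, Gencode M14) with STAR 2.7.6 and deposited raw read counts per gene from HTSeq 0.11.1, as well as counts of T and of T2C mutations per gene, exon and intron. T2C variants called in unlabeled libraries were left out by the authors. The deposited conversion rate, a fraction of T per library, came from the authors' binomial mixture model, and the deposited ratio of new to total RNA is T2C per T divided by that rate. Shares recomputed here differed from the deposited ones by at most 1.21e-13. Unlabeled libraries were not analysed here.

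Reads on genes numbered 15382522 to 52975732 in the 64 libraries used. Rows that name no gene (30.4 to 48.8% of a library) were left out. Levels were tested with edgeR 4.0.16 (quasi-likelihood, TMM) on counts summed per replicate and fraction, and labeling times on the 18 libraries of a fraction. Shares were tested with limma 3.58.1 on log2(share + 0.005) minus the library median, averaged per replicate, so that differences of low shares are understated. Genes needed 400 T counts in every library for exons and 100 for introns. A call needs an adjusted p (Benjamini-Hochberg over all genes) under 0.05 and a log2 difference beyond 0.5. DESeq2 1.42.0, other filters, pseudocounts, scalings and left-out replicates were alternatives. Scripts were tested on simulated data.

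The members and gene lists were chosen with earlier results of these data known. From each list the 2 genes highest in whole cells are named. Fractions of a replicate and time come from one culture, so that replicate numbers pair samples. Deviations of same-numbered samples correlated at 0.09 to 0.77 for levels (12 pairs), 0.07 to 0.62 for exon shares (12) and 0.15 to 0.51 for introns with exons (6). Fits without the replicate as a block are the main ones. Positions and coding starts are from GENCODE M21 on GRCm38, which names 51633 (99.6%) of the genes.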

Additional observations from a re-analysis of the deposited data

How the results depend on the processing

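Of the results for single members, 499 values under alternatives kept direction and side of the threshold, 57 lost the call, 39 gained it and 8 reversed, and the cause was not tested. Reversed were cytosolic *Tubb2a* against the median gene (-0.70 in unshared exons, -0.13 within replicates 5 and 6), whole-cell *Tubb3* (-0.076 from 60 min and longer, -0.17 in unshared exons, -0.061 within replicates 5 and 6), *Tubb3* intron against exon within replicates 1 and 2 (-0.37), and *Tubb2b* (-0.42) and *Tubb3* (-0.10) in cytosol against nucleus with the replicate block and no centring. The intron against exon value of *Tubb3* rests on exons that include its stretch with many conversions.

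Members called moved for levels to 2 in nucleus against cytosol within replicates 5 and 6 (10 as reported), to 4 in membrane against cytosol by library size, and in the nucleus at 120 against 20 min to 4 with DESeq2, 5 without filter and 8 with the replicate block. No source ties a replicate number to one passage over labeling times, and deviations by time correlated at -0.05 to 0.62 (8 checks). For shares against the median gene they moved to 7 (60 min and longer), 1 (pseudocount 0.02), 5 (unshared exons), 7, 4 and 8 (within the 3 pairs) in the nucleus, to 5 (60 min and longer), 1 (pseudocount 0.02), 7 (replicates 1 and 2) and 6 (replicates 5 and 6) in the cytosol, to 6 (60 min and longer) and 6 (replicates 5 and 6) in the membrane fraction, and to 6 (60 min and longer), 5 (replicates 1 and 2) and 7 (replicates 5 and 6) in whole cells. For cytosol against nucleus they were 4 from 60 min and longer, 2 with the replicate block, 8 with the block and no centring, and 1, 6 and 1 within the 3 pairs. The block changed no other count of members by over 1.5 times.

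All genes called moved too. At 120 against 20 min, DESeq2, library size, no filter and the replicate block gave 275, 281, 436 and 1044 in the cytosol (170 as reported), 36, 5, 116 and 46 in the membrane fraction (12) and 113, 12, 227 and 31 in whole cells (19), and DESeq2, no filter and the block gave 975, 1242 and 1803 in the nucleus (518). At 120 against 60 min, no filter gave 12 in the cytosol, 2 in the membrane fraction, 80 in the nucleus and 49 in whole cells (0). Membrane against cytosol gave 10126 by library size, of which 3576 were higher and 6550 lower (5712, with 4024 and 1688). Shares of cytosol against nucleus gave 4280 from 60 min and longer, 8621 with the block and no centring, and 1150, 2971 and 2938 within the pairs (1946). Membrane against cytosol shares gave 603 and 689 within replicates 1 and 2 and 3 and 4 (1117), and introns against exons 10736 with the block and no centring (5204).

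Leaving out 1 replicate at a time gave 27 to 862 genes in the cytosol, 1 to 7 in the membrane fraction, 104 to 565 (0 to 2 members) in the nucleus and 0 to 77 in whole cells at 120 against 20 min, where the sample left alone is assumed to vary like the other groups. Members called ranged from 8 to 10 for nucleus against cytosol, 0 to 1 for membrane against cytosol, 2 to 7 for introns against exons and 2 to 4 for nuclear shares, and genes from 1196 to 2156 for shares of cytosol against nucleus. Other minimums of T counts (exons 100 and 2000, introns 50 and 500) moved no count of members or genes by over 1.5 times.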
